A study of Mus musculus with 13 samples.

Results

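Heat shock and chaperone genes were examined in T cells sorted from mouse tumors. Members were chosen by symbol alone, as the genes that begin with Hsp followed by a, b, d, e, h or a digit, the Dnaj genes, the numbered Cct genes and Tcp1, which gave 71 of the 12963 genes in the table. They comprised 24 Hsp genes, 39 Dnaj genes and 8 genes for subunits of the chaperonin TRiC/CCT.

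Tumors of the mouse melanoma line B16-F10 were implanted subcutaneously in Foxp3-EGFP-DTR mice, whose Foxp3 locus also expresses EGFP and a receptor for diphtheria toxin (DTx). DTx therefore kills regulatory T (Treg) cells and PBS spares them, and the study asked what conventional T (Tconv) cells do when Treg cells are gone. RNA from each sorted population was sequenced in bulk, and the 13 libraries made 5 groups: Treg cells after PBS (Treg PBS, n = 3), CD4 Tconv cells after PBS (CD4 PBS, n = 2) or DTx (CD4 DTx, n = 3), and CD8 T cells after PBS (CD8 PBS, n = 2) or DTx (CD8 DTx, n = 3). The genotype and the tumor were common to all groups, so no group was free of the transgene or of a tumor. The study used adult mice of both sexes, and its replicates were biological and collected on separate days. Neither the labels nor the methods say whether libraries with the same number shared an animal or a day. CD4 PBS and CD8 PBS held libraries numbered 2 and 3 only.

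Chaperones bind unfolded proteins and help them reach or keep their shape. HSP70 proteins do so in cycles of ATP hydrolysis, J proteins (Dnaj genes) deliver substrates and start the hydrolysis, and nucleotide exchange factors such as the HSP110 proteins end each cycle. HSP90 proteins act later on signaling proteins, TRiC/CCT folds actin and tubulin inside a closed ring, and separate sets of chaperones serve the endoplasmic reticulum (ER) and mitochondria. Heat shock factor 1 (Hsf1) switches on the inducible cytosolic genes through repeated GAA blocks, and ATF6 and XBP1 switch on ER chaperones through the ER stress element. Dividing and cytokine-secreting T cells make large amounts of new protein and depend on these systems.

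The promoters show how the inducible members differ in DNA. Windows of 250 bases before the start site were taken from RefSeq (GRCm38.p6), and 57 of the 71 members had at least 1 window (76 windows). The paired block GAANNTTC or TTCNNGAA was present in 17 of these 76 windows, belonging to 15 genes, against 12.8% of the 32851 windows of all genes. A run of 3 such blocks, in which GAANNTTC is followed after 2 bases by GAA, or TTCNNGAA by TTC, contains the paired block and was present in 4 of the 76 windows (Dnajb6, Hspd1 and Hspe1) against 0.466% of all windows. Exons of Hspd1 and Hspe1 overlap on opposite strands, so their windows may hold the same stretch and are not independent. The ER stress element, CCAAT and CCACG with 9 bases between them on either strand, was present in 3 windows (Dnajc3, Hsp90b1 and Hspa5) against 0.113% of all windows. A match of letters is a description and does not show binding. The stretches printed here carry a GAA block or an ER stress element outside every exon annotated in GENCODE vM21, and belong to inducible or ER members whose values are given later. Hspb1 also had such a stretch, with 2 paired blocks, which is not printed. Capitals mark the motif.
Hspa1a, chr17:34972157-34972300, minus strand: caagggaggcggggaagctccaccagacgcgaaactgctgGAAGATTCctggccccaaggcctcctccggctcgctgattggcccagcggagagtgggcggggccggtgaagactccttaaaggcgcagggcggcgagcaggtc
Hspa1b, chr17:34959239-34959382, minus strand: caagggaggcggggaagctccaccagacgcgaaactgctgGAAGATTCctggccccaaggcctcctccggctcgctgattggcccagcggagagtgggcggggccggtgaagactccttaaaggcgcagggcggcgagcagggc
Dnajb4, chr3:152193846-152193899, minus strand: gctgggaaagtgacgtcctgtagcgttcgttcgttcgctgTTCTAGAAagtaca
Hsp90b1, chr10:86705510-86705694, minus strand: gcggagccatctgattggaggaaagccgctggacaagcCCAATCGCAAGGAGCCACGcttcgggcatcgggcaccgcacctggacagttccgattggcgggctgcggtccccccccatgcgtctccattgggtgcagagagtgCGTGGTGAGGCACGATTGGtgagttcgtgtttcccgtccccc
Dnajc3, chr14:118937787-118937931, plus strand: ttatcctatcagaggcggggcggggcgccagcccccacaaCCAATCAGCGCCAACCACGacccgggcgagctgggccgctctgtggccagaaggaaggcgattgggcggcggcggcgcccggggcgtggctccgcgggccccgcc

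Hspa1a and Hspa1b, the stress-inducible HSP70 genes, are near copies of each other. Their 250-base windows were identical at 247 positions, their coding sequences were 99.6% identical, and 82.4% of the 50-base stretches of Hspa1a were also found in Hspa1b. The authors counted uniquely mapped reads, so the level of each of these genes is uncertain and they are read together below. Hsp90b1, the ER member of the HSP90 family, carried the ER stress element at 2 places in its window.

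Levels are given in normalized reads, the deposited values, in which 1 read was worth between 0.661 and 1.37 units. All 71 members passed the filter of 10 normalized reads in 2 libraries, which 12667 genes passed. Recovered depth was between 15947556 and 34140486 reads per library. Groups were compared by limma on log2(value + 1), two-sided, and a gene was called at an adjusted p under 0.05 over all genes tested. Fold changes are on that log2 scale and understate the change of low genes, and SE is the standard error of the log2 fold change. Foxp3 was between 1178 and 1896 in the Treg libraries and at most 12.1 in all others, Cd4 was at least 10595 in every CD4 and Treg library, and Cd8a and Cd8b1 together were at least 63851 in every CD8 library. The CD8 DTx libraries held up to 413 normalized reads of Cd4, and the CD4 DTx libraries up to 3662 of Cd8a and Cd8b1. In bulk RNA, fewer cells of a type and less RNA per cell cannot be told apart, which holds for every difference below.

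Together the members made up between 0.99% and 1.46% of all normalized reads of a library. This share ran from 1.16% to 1.28% in Treg PBS and was 1.02% and 1.46% in the CD4 PBS libraries numbered 2 and 3. It was 1.14% and 1.45% for CD8 PBS, and ran from 0.99% to 1.32% in CD4 DTx and from 1.03% to 1.37% in CD8 DTx. All 5 groups overlapped. Of the 71 members, 15 were called in at least 1 of 8 comparisons and 56 in none.

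**Figure D1:**
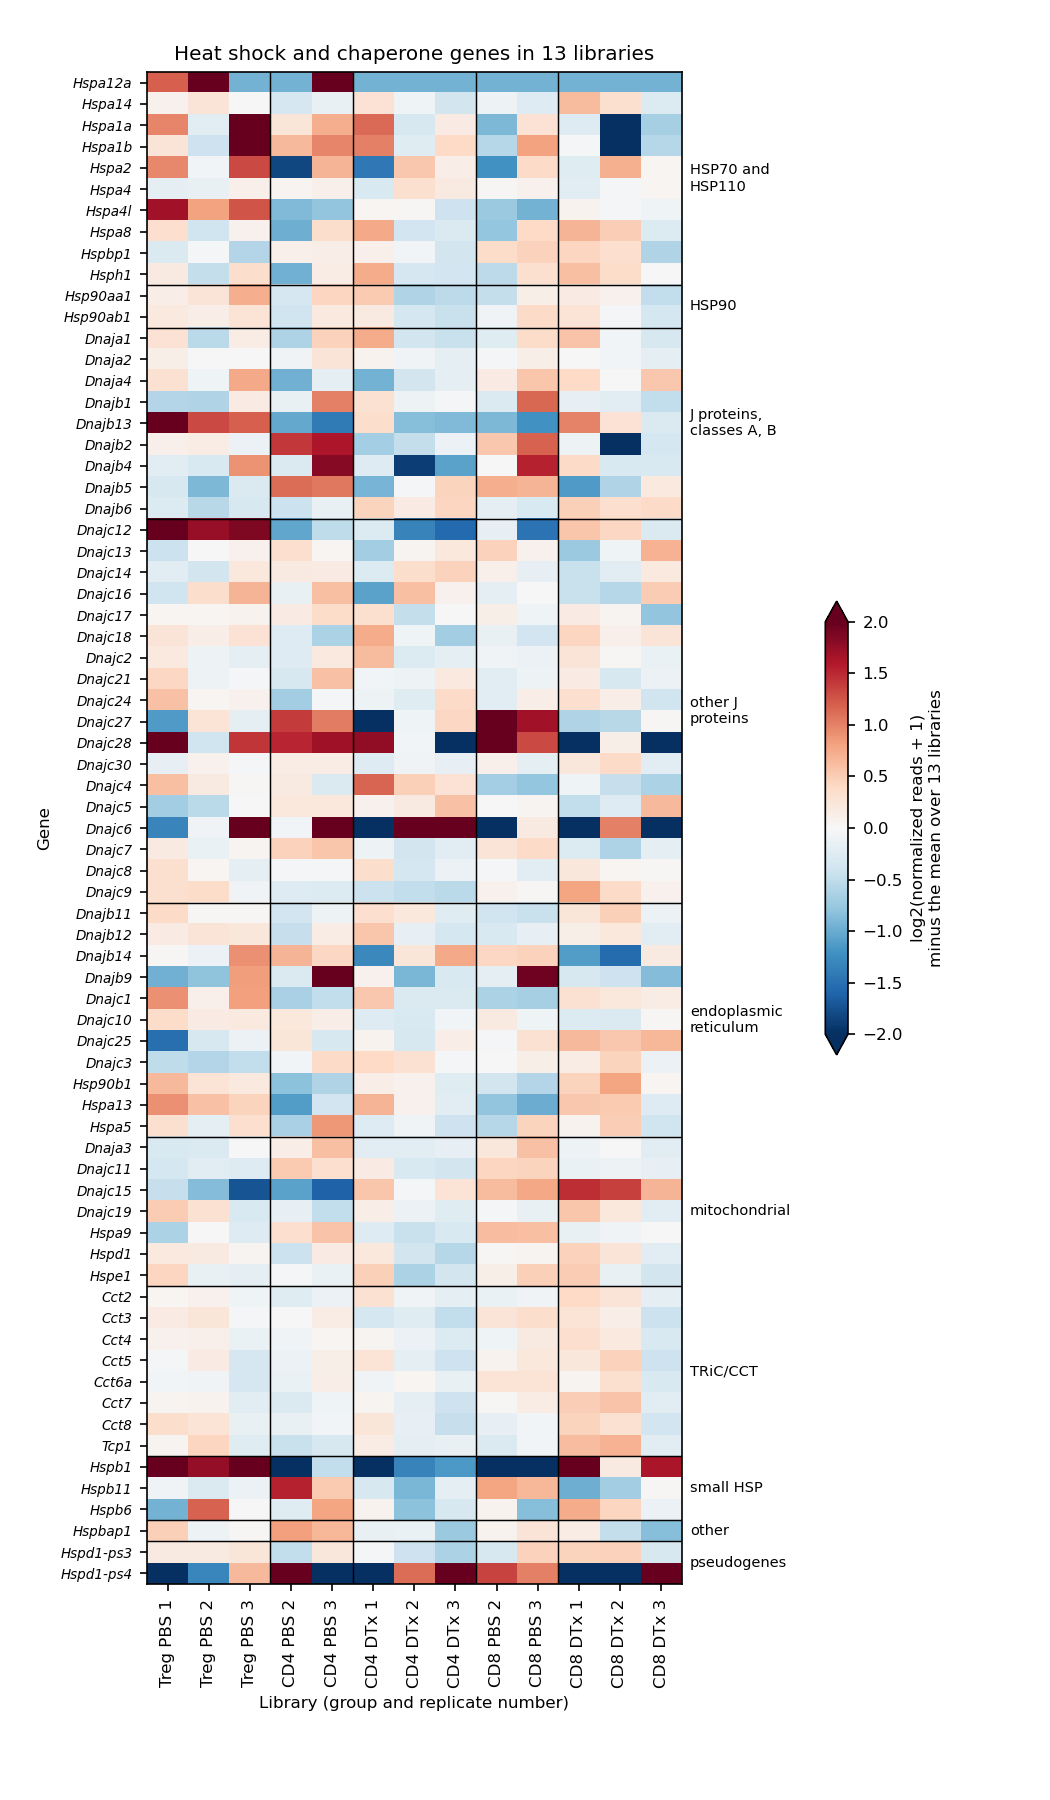
Levels of the 71 members (rows, grouped by role) in the 13 libraries (columns, by group and replicate number), as log2(normalized reads + 1) minus the member's mean over the 13 libraries, with the color limited at 2 in either direction. Hspa4l, Dnajb13 and Dnajc12 were highest in the 3 Treg libraries, Dnajc15 was highest in 2 of the 3 CD8 DTx libraries, and Dnajb4 and Dnajb9 were highest in the CD4 PBS and CD8 PBS libraries numbered 3.

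Treg cells were compared with CD4 Tconv cells from PBS-treated mice to find the chaperones that distinguish the cell types in an untouched tumor. Treg cells had 7 members above and 4 below CD4 Tconv cells among 11 called, and among all genes tested 20.4% were called, 13.5% higher and 6.91% lower. The median log2 fold change was 0.04 over members and 0.01 over all genes. The genes higher in Treg cells were the HSP110-type exchange factor Hspa4l, the ER chaperones Hsp90b1, Hspa13 and Dnajc1, the J proteins Dnajb13 and Dnajc12, and the small heat shock protein Hspb1. The genes lower in Treg cells were mitochondrial Hspa9 and Dnajc11, the ER cochaperone Dnajc3 and the cytosolic J protein Dnajb5. Hspa4l, Dnajb13, Dnajc12 and Hspb1 also passed the 4-fold threshold that the study used for cell type genes. These are 4 of the 71 members tested, a smaller share than the 10.2% of all genes tested.

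Hspa4l encodes an HSP110-family protein that releases nucleotide from HSP70. The 3 Treg PBS libraries held 3025, 1652 and 2267 normalized reads, those of CD4 PBS 515 and 548, and those of CD8 PBS 564 and 492. They were 971, 965 and 708 in CD4 DTx and 990, 934 and 895 in CD8 DTx. Every Treg library lay above every Tconv library, and every DTx library lay above every PBS library of the Tconv cells. Against CD4 PBS the log2 fold change in Treg cells was 2.08 (SE 0.26, limma adjusted p = 0.000221), or 4.22-fold. CD4 DTx stood 2.57-fold below Treg PBS (log2 fold change -1.36, SE 0.24, limma adjusted p = 0.00424) and CD8 DTx 2.39-fold below it (-1.26, SE 0.24, limma adjusted p = 0.00526). The sum over the 4 melanocyte markers in the table was also higher in Treg cells, at 727 to 1197 for Treg PBS. It was 435 to 448 for CD4 PBS and 89.0 to 170 for CD4 DTx. Tyrp1 and Dct were above CD4 PBS in every Treg library. Pmel (88.1, 161 and 267 against 209 and 281) and Tyr (13.5, 59.6 and 40.0 against 24.6 and 17.8) overlapped between these groups. The part of these markers in the Treg differences was not tested. Between CD4 PBS and CD4 DTx the marker sum was lower after DTx, and Hspa4l was higher but not called. Any link between the marker sum and Hspa4l was not tested. The call of Hspa4l in Treg PBS against CD4 PBS was kept under every alternative. Its call in CD4 DTx against Treg PBS was kept in every alternative fit but did not pass the 4-fold threshold. That call came closest to being lost without the 3 PBS libraries numbered 3 (log2 fold change -1.36).

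Dnajb13, a J protein known from the axonemes of sperm and cilia, was 1286, 597 and 546 in Treg cells, against 116 and 88.5 in CD4 PBS and 304, 132 and 129 in CD4 DTx. The Treg libraries lay above all others, the highest of which was 474 in CD8 DTx. The log2 fold change against CD4 PBS was 2.87 (SE 0.53, limma adjusted p = 0.00259), and that of CD4 DTx against Treg PBS was -2.11 (SE 0.48, limma adjusted p = 0.0186). The second call was lost without Treg PBS 1 (-1.72, limma adjusted p = 0.0802), CD4 DTx 2 (-1.91, 0.0655) or CD4 DTx 3 (-1.90, 0.0706). Exons of Dnajb13 overlap those of Ucp2, a mitochondrial carrier gene on the other strand, and the strand setting of the counting is not stated, so reads of these genes cannot be told apart with certainty. Ucp2 lay between 37492 and 45300 in the Treg libraries and between 25860 and 26726 in those of CD4 PBS, a log2 fold change of 0.66 (limma adjusted p = 0.159).

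Dnajc12, a cytosolic J protein that serves the aromatic amino acid hydroxylases, was 424, 343 and 376 in Treg PBS. It was 49.2 and 71.3 in CD4 PBS, 84.2, 39.9 and 34.2 in CD4 DTx, 91.1 and 36.0 in CD8 PBS, and 151, 136 and 83.5 in CD8 DTx. No library of another group reached the lowest Treg library. The log2 fold change was 2.66 against CD4 PBS (SE 0.57, limma adjusted p = 0.00656), a call lost without CD4 PBS 2 (2.40, limma adjusted p = 0.0671). In CD4 DTx against Treg PBS it was -2.94 (SE 0.51, limma adjusted p = 0.00455), and this call was kept under every alternative.

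Hspb1, a small heat shock protein that holds unfolded proteins, was close to the detection limit. It had 58, 15 and 44 reads in the Treg libraries, 0 and 4 in CD4 PBS, 0, 1 and 1 in CD4 DTx, 0 and 0 in CD8 PBS, and 24, 5 and 11 in CD8 DTx. After scaling for depth, Treg PBS had 22.2 times the reads of CD4 PBS (95% exact interval 8.46 to 83.0) and 55.6 times those of CD4 DTx (15.05 to 464), intervals that cover counting error only. Both differences were called by limma (adjusted p = 0.0182 and 0.0179). Neither was called by edgeR on the recovered reads (adjusted p = 0.122 and 0.0948), and the fitted log2 fold change against CD4 PBS went from 4.23 to 2.03 with a pseudocount of 10. The first call was also lost without Treg PBS 1 (3.98, limma adjusted p = 0.0581) or CD4 PBS 2 (3.29, 0.164), and the second without Treg PBS 1 (-4.17, 0.0641) or Treg PBS 3 (-4.13, 0.0603).

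**Figure D2:**
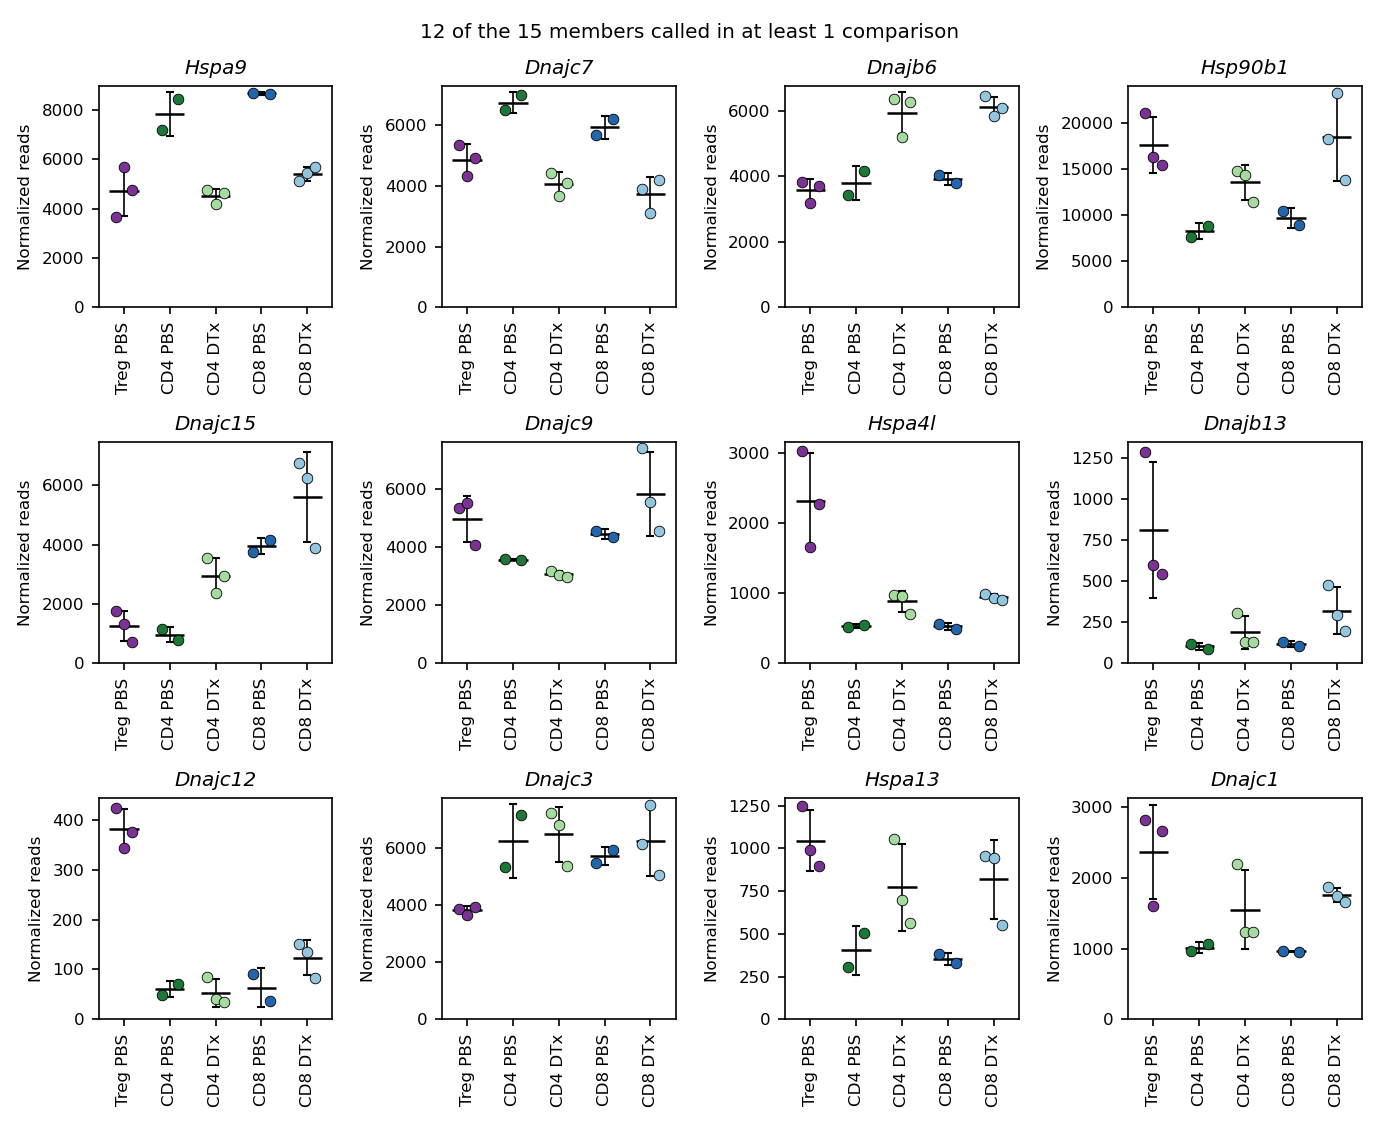
Levels in normalized reads (vertical axis, from 0) of 12 of the 15 members called in at least 1 comparison, by group; dots are libraries, bars are group means and error bars are SD. Hspa9 and Dnajc7 are lower, and Dnajb6 higher, in every DTx library than in every PBS library of CD4 and CD8 Tconv cells.

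The ER set held 11 members, of which Hsp90b1, Hspa13 and Dnajc1 were higher and Dnajc3 lower in Treg cells than in CD4 PBS. Hsp90b1 (GRP94), which folds integrins and other surface proteins, was 21180, 16322 and 15494 in Treg PBS against 7647 and 8871 in CD4 PBS. The groups did not overlap, and the log2 fold change was 1.09 (SE 0.24, limma adjusted p = 0.00783). This call was lost without CD4 PBS 2 (0.98, limma adjusted p = 0.0798). Hspa13, an HSP70-like protein of microsomes, was 1246, 991 and 899 against 303 and 505 (log2 fold change 1.40, SE 0.35, limma adjusted p = 0.015), and was not called without Treg PBS 1 (1.27, 0.0551) or CD4 PBS 2 (1.03, 0.165). Dnajc1, a J protein of the ER membrane, was 2820, 1607 and 2660 against 959 and 1063 (log2 fold change 1.18, SE 0.29, limma adjusted p = 0.0137), and was not called without Treg PBS 1 (1.03, 0.0523), CD4 PBS 2 (1.11, 0.101) or CD4 PBS 3 (1.26, 0.0678). Exons of Dnajc1 overlap those of Mllt10 on the other strand, which was not higher in Treg cells (log2 fold change -0.59, limma adjusted p = 0.176).

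Dnajc3, which carries the ER stress element printed above as Hsp90b1 does, moved the other way. Its product (P58IPK) is a cochaperone of BiP and an inhibitor of the kinase PERK. It was 3889, 3666 and 3935 in Treg PBS and between 5070 and 7514 in all 10 other libraries, so Treg cells stood below every Tconv library. The log2 fold change in Treg cells was -0.69 against CD4 PBS (SE 0.21, limma adjusted p = 0.0364). CD4 DTx and CD8 DTx stood above Treg PBS by 0.75 (SE 0.19, limma adjusted p = 0.0306) and 0.69 (SE 0.19, limma adjusted p = 0.0429). These 3 calls were fragile. Leaving out any 1 library of the groups compared gave adjusted p between 0.0518 and 0.29 for the first, and leaving out CD4 DTx 3 alone or CD8 DTx 3 alone kept the other 2. Hspa5 (BiP), the main HSP70 of the ER and the third member with the element, was 25824, 18254 and 25903 in Treg PBS against 13228 and 37774 in CD4 PBS, and the groups overlapped (log2 fold change 0.04, 95% interval -0.89 to 0.97, limma adjusted p = 0.959).

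Mitochondrial Hspa9 (mortalin), the HSP70 that pulls imported proteins into the matrix, was 3669, 5714 and 4743 in Treg PBS and 7200 and 8464 in CD4 PBS (log2 fold change -0.75, SE 0.19, limma adjusted p = 0.0166). The call was lost without Treg PBS 1 (-0.58, 0.0553), CD4 PBS 2 (-0.87, 0.0541) or CD4 PBS 3 (-0.64, 0.15). Dnajc11, a J protein of the mitochondrial outer membrane, was 1276, 1399 and 1358 against 2352 and 2066 (log2 fold change -0.71, SE 0.19, limma adjusted p = 0.0216), and was not called without Treg PBS 1 (-0.68, 0.0619), CD4 PBS 2 (-0.62, 0.166) or CD4 PBS 3 (-0.81, 0.0788). Dnajb5 was 169, 112 and 171 against 455 and 435 (log2 fold change -1.59, SE 0.49, limma adjusted p = 0.0394), and leaving out any 1 of the 5 libraries raised its adjusted p to between 0.0524 and 0.173. Each of these genes was below CD4 PBS in all 3 Treg libraries. Among the other mitochondrial members, the chaperonin Hspd1 (HSP60) and its lid Hspe1 (HSP10) had log2 fold changes of 0.27 (95% interval -0.32 to 0.85) and 0.11 (-0.66 to 0.89).

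Of the 11 calls, 4 held without Treg PBS 1 (13.8% of all genes called), 9 without Treg PBS 2 (15.2%), 9 without Treg PBS 3 (20.9%), 2 without CD4 PBS 2 (10%) and 6 without CD4 PBS 3 (9.39%). When only the libraries of these groups were fitted 8 held (18.4% of all genes), and Dnajc1, Dnajc3 and Hspa9 were lost (limma adjusted p = 0.0517, 0.0505 and 0.0812). Proliferation genes moved with this comparison: 12 of 14 were called higher in Treg cells, and the sum over the list ran from 54158 to 95941 in the Treg libraries against 22721 to 23466 in CD4 PBS. Their part in the chaperone differences was not tested.

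Treg depletion was then examined within Tconv cells. In CD4 cells 4 members were called after DTx, 2 higher and 2 lower, against 12.7% of all genes tested, 8.64% higher and 4.08% lower. In CD8 cells 4 members were called, again 2 higher and 2 lower, against 10.9% of all genes, 7.4% higher and 3.47% lower. Hspa9 and Dnajc7 were lower and Dnajb6 was higher after DTx in both cell types, Dnajc15 was higher in CD4 cells, and Hsp90b1 was higher in CD8 cells. Each of these shares lies below that of all genes. DESeq2 on the recovered reads called 11 members in CD4 cells, against 18.3% of all genes, and 9 in CD8 cells, against 16.3%, and in each case the 4 called by limma were among them. edgeR called 4 members in CD4 cells, against 11% of all genes, and 2 in CD8 cells, against 9.06%. By limma no member passed the 4-fold threshold in CD4 cells (6.85% of all genes) or in CD8 cells (5.46%). The median log2 fold change of the members was -0.11 in CD4 and 0.03 in CD8 cells, against -0.04 and -0.03 over all genes.

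Hspa9 was 4752, 4179 and 4624 in CD4 DTx against 7200 and 8464 in CD4 PBS, and 5133, 5439 and 5675 in CD8 DTx against 8715 and 8644 in CD8 PBS. All 6 DTx libraries lay below all 4 PBS libraries of Tconv cells and within the range of the Treg libraries. It was 1.73-fold lower in CD4 cells (log2 fold change -0.79, SE 0.19, limma adjusted p = 0.0181) and 1.60-fold lower in CD8 cells (-0.68, SE 0.19, limma adjusted p = 0.0421). Against Treg PBS the difference was -0.04 in CD4 DTx (95% interval -0.42 to 0.34) and 0.22 in CD8 DTx (-0.15 to 0.60). The CD4 call was lost without CD4 PBS 2 (-0.91, limma adjusted p = 0.0592), CD4 PBS 3 (-0.67, 0.185) or CD4 DTx 2 (-0.74, 0.0623). The CD8 call was lost by edgeR (-0.66, 0.061) and without CD8 PBS 2 (-0.68, 0.181), CD8 PBS 3 (-0.69, 0.257), CD8 DTx 1 (-0.64, 0.107) or CD8 DTx 2 (-0.69, 0.0949).

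Dnajc7, a cochaperone that binds both HSP70 and HSP90, was also lower after DTx in both cell types. Treg PBS held 5340, 4320 and 4916, and every DTx library except CD4 DTx 1 lay below all of these. The order against Treg cells therefore differed from that of Hspa9. Dnajc7 was 4433, 3656 and 4086 in CD4 DTx against 6494 and 6982 in CD4 PBS (log2 fold change -0.73, SE 0.18, limma adjusted p = 0.0198). In CD8 cells it was 3903, 3090 and 4173 against 5659 and 6196 (-0.68, SE 0.18, limma adjusted p = 0.0331). No DTx library reached a PBS library of the same cell type. The CD4 call was lost without CD4 PBS 2 (-0.79, 0.0932), CD4 PBS 3 (-0.68, 0.164) or CD4 DTx 2 (-0.66, 0.0697), and the CD8 call by edgeR (-0.65, 0.0531) and without CD8 PBS 2 (-0.75, 0.113), CD8 PBS 3 (-0.62, 0.285), CD8 DTx 1 (-0.72, 0.059) or CD8 DTx 2 (-0.55, 0.103). Exons of Dnajc7 overlap those of Cnp and Nkiras2 on the other strand. After DTx these had log2 fold changes of -0.33 and 0.12 in CD4 cells and -0.24 and 0.20 in CD8 cells, none called.

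Dnajb6, a J protein that keeps aggregation-prone proteins soluble, rose after DTx. Levels were 6348, 5204 and 6286 in CD4 DTx against 3436 and 4173 in CD4 PBS, and 6449, 5843 and 6093 in CD8 DTx against 4055 and 3782 in CD8 PBS. It was 3842, 3172 and 3716 in Treg PBS, so all 6 DTx libraries stood above all 7 libraries from PBS-treated mice. The increase was 1.56-fold in CD4 cells (log2 fold change 0.65, SE 0.17, limma adjusted p = 0.0282) and 1.56-fold in CD8 cells (0.64, SE 0.17, limma adjusted p = 0.0329). Against Treg PBS it was 0.73 in CD4 DTx (SE 0.15, limma adjusted p = 0.0128) and 0.78 in CD8 DTx (SE 0.15, limma adjusted p = 0.00733). The CD4 call was lost without CD4 PBS 2 (0.50, 0.243), CD4 PBS 3 (0.79, 0.0722), CD4 DTx 1 (0.59, 0.0661) or CD4 DTx 3 (0.60, 0.0774), the CD8 call without CD8 PBS 2 (0.70, 0.12), CD8 PBS 3 (0.59, 0.276), CD8 DTx 1 (0.61, 0.0864) or CD8 DTx 2 (0.68, 0.0617), and the CD4 DTx call against Treg PBS without Treg PBS 2 (0.65, 0.0587) or CD4 DTx 3 (0.69, 0.0563).

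Dnajc15 encodes a J protein of the mitochondrial inner membrane that restrains respiratory complex I. Treg cells held 1751, 1324 and 735 normalized reads, and CD4 cells 1153 and 786 after PBS and 3566, 2375 and 2943 after DTx. In CD8 cells it was 3768 and 4158 after PBS and 6741, 6237 and 3889 after DTx. CD4 DTx stood above CD4 PBS without overlap, and every CD8 library stood above every CD4 library. The log2 fold change of CD4 DTx was 1.62 against CD4 PBS (SE 0.35, limma adjusted p = 0.0102), a 3.07-fold increase that was not called without CD4 PBS 3 (1.34, 0.132). In CD8 cells it was 0.47 (95% interval -0.30 to 1.24, limma adjusted p = 0.419), with overlapping groups. The difference between these effects was 1.15 (95% interval 0.06 to 2.24) and was not called (limma adjusted p = 1), so Dnajc15 is not shown to respond differently in CD4 and CD8 cells.

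Between cell types Dnajc15 was the only member called in CD8 PBS against CD4 PBS, where 1.08% of all genes were called. The log2 fold change was 2.05 (SE 0.39, limma adjusted p = 0.0235), or 4.15-fold. This call was lost when any 1 of the 4 libraries was left out (1.78 to 2.33, adjusted p 0.0592 to 0.208) and when only these 4 libraries were fitted (adjusted p = 0.172). Against Treg PBS the log2 fold change was 1.29 in CD4 DTx (SE 0.32, limma adjusted p = 0.0272) and 2.19 in CD8 DTx (SE 0.32, limma adjusted p = 0.000983). The CD8 DTx difference of 4.58-fold was kept under every alternative, and that of CD4 DTx was lost without Treg PBS 2 (1.36, 0.0677), Treg PBS 3 (0.94, 0.0786), CD4 DTx 1 (1.15, 0.0765) or CD4 DTx 3 (1.28, 0.075).

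Hsp90b1 was 18312, 23273 and 13868 in CD8 DTx against 10480 and 8967 in CD8 PBS, a 1.87-fold increase (log2 fold change 0.90, SE 0.24, limma adjusted p = 0.0337). In CD4 cells it was 14863, 14406 and 11453 after DTx against 7647 and 8871 after PBS (0.71, SE 0.24), a difference without overlap that was not called (limma adjusted p = 0.0771). DTx libraries of both cell types stood above the PBS libraries of the same type. The CD4 and CD8 effects differed by -0.19 (95% interval -0.93 to 0.56, limma adjusted p = 1). The CD8 call was lost without CD8 PBS 2 (1.01, 0.0972), CD8 PBS 3 (0.79, 0.296), CD8 DTx 1 (0.89, 0.0826) or CD8 DTx 2 (0.72, 0.107).

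Of the 4 calls in CD4 cells, 1 held without CD4 PBS 2 (6.66% of all genes called), none without CD4 PBS 3 (5.19%), 3 without CD4 DTx 1 (11.3%), 2 without CD4 DTx 2 (9.46%) and 3 without CD4 DTx 3 (10.6%). Of the 4 calls in CD8 cells, none held without CD8 PBS 2 (6.25% of all genes), CD8 PBS 3 (1.59%), CD8 DTx 1 (6.81%) or CD8 DTx 2 (6.19%), and all 4 held, among 9 called, without CD8 DTx 3 (19.7%). When only the groups compared were fitted, 3 held in CD4 cells (7.76% of all genes), with Dnajb6 lost (limma adjusted p = 0.0952), and none in CD8 cells (1.89%). Proliferation genes were also higher after DTx, with 7 of 14 called in CD4 and 10 of 14 in CD8 cells. The sum over the list was 27026 to 40393 in CD4 DTx against 22721 to 23466 after PBS, and 55836 to 92134 in CD8 DTx against 26055 to 32526, and their part in the chaperone differences was not tested.

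No member was called in the test of whether DTx acted differently on CD4 and CD8 cells (limma, 0.0474% of all genes called), and edgeR and DESeq2 on the recovered reads also called none. At an unadjusted p under 0.05, limma gave 2 members, against 4.05% of all genes. Only 32.4% of the members had an interval of this difference within 2-fold in either direction, so these data bound it loosely. Between CD8 DTx and CD4 DTx 1 member was called, against 1.64% of all genes. It was Dnajc9, a J protein of the nucleus that chaperones histones, at 7408, 5577 and 4547 against 3178, 3053 and 2960 (log2 fold change 0.90, SE 0.19, limma adjusted p = 0.0367). The CD8 DTx libraries lay above the CD4 DTx libraries without overlap, but the call was lost by edgeR (0.92, adjusted p = 0.0527), when only these groups were fitted (0.90, limma adjusted p = 0.189) and when any library other than CD8 DTx 3 was left out (0.72 to 0.93, adjusted p 0.0654 to 0.12). In this comparison the deviations of same-numbered libraries from their group means correlated at 0.36, 0.21 and 0.59, though the sources do not state a pairing. With the replicate number as a block 2 members were called, Dnajc9 among them (limma adjusted p = 0.0102), against 3.27% of all genes in that fit.

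CD4 DTx was also set beside Treg PBS, that is, Tconv cells of depleted tumors beside the Treg cells of intact ones. Here 8 members were called, 3 higher (Dnajc15, Dnajc3 and Dnajb6) and 5 lower (Hspb1, Dnajc12, Dnajb13, Hspa4l and Dnajc9), against 7.91% of all genes, 3.36% higher and 4.55% lower. In CD8 DTx against Treg PBS 4 members were called, 3 higher (the same 3) and Hspa4l lower, against 8.6% of all genes, 3.88% higher and 4.71% lower. These comparisons share the Treg libraries. Dnajc9 was 5367, 5528 and 4079 in Treg PBS, and CD4 DTx lay below it without overlap (log2 fold change -0.69, SE 0.19, limma adjusted p = 0.0452). That call was lost by edgeR (-0.66, 0.0777), under TMM scaling (-0.65, 0.0623), when only these groups were fitted (-0.69, 0.0692) and without Treg PBS 1 (-0.63, 0.137), Treg PBS 2 (-0.61, 0.158) or any 1 of the CD4 DTx libraries (-0.72 to -0.67, 0.0707 to 0.123). Of the 8 calls, 4 held without Treg PBS 1, Treg PBS 2 or CD4 DTx 3 (4.48% to 4.63% of all genes called), and 5 without Treg PBS 3, CD4 DTx 1 or CD4 DTx 2 (5.85% to 7.06%). Fitting only the groups compared also lost Dnajb13 and Dnajc15 in CD4 DTx (limma adjusted p = 0.0725 and 0.0979) and Dnajc3 in CD8 DTx (0.108).

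TRiC/CCT genes differed little between groups. None of the 8 subunit genes was called in any comparison by limma, edgeR or DESeq2, and limma gave 1 at an unadjusted p under 0.05, Cct3 in CD4 DTx against Treg PBS (log2 fold change -0.49). At that level edgeR gave the same 1, and DESeq2 gave Cct3 in 3 comparisons and Cct7 and Tcp1 in 1 each. In Treg PBS against CD4 PBS their log2 fold changes ran from -0.15 to 0.46 with a median of 0.10, in CD4 DTx against CD4 PBS from -0.44 to 0.32 with a median of -0.04, and in CD8 DTx against CD8 PBS from -0.31 to 0.54 with a median of 0.11. The 95% intervals lay within 2-fold for 7, 8 and 7 of the 8 genes, that is for 87.5%, 100% and 87.5%, against 22.3%, 25.9% and 25.2% of all genes. Tcp1, the founding subunit, was the exception on the upper side in both cases (intervals -0.15 to 1.07 and -0.07 to 1.15).

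**Figure D3:**
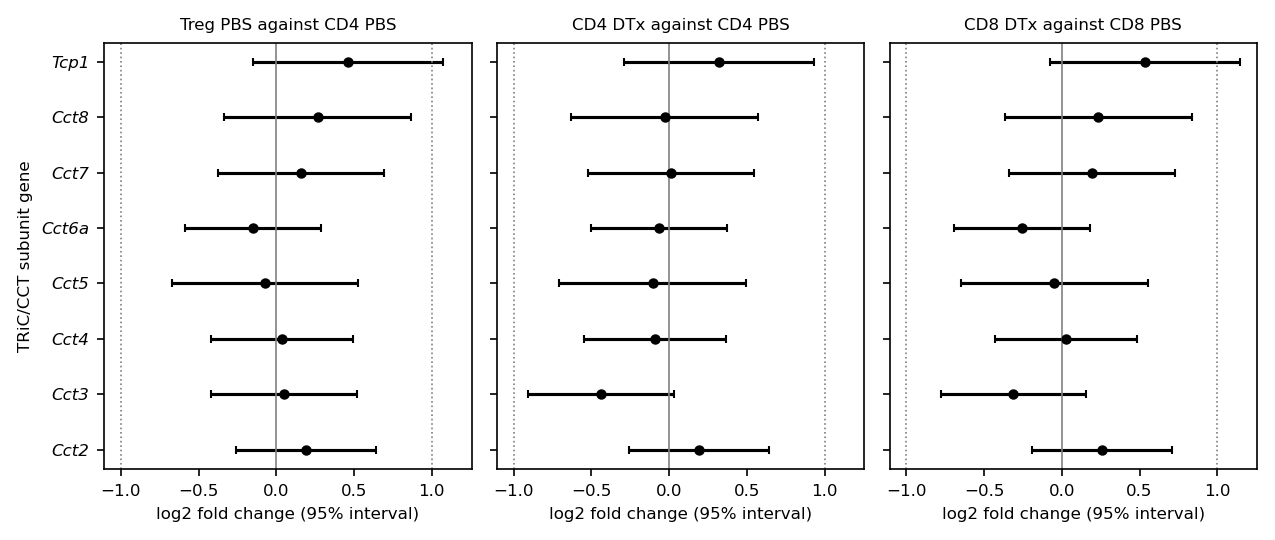
Log2 fold changes (horizontal axis, points) with 95% intervals (bars) of the 8 TRiC/CCT subunit genes in 3 comparisons; dotted lines mark a 2-fold difference in either direction. Only the upper ends for Tcp1, at 1.07 and 1.15, pass the dotted lines.

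Within the DTx groups the library numbered 3 stood low for TRiC/CCT genes. Cct8 was 15056, 11354 and 9252 in CD4 DTx and 17362, 15723 and 9854 in CD8 DTx. Cct5 was 11447, 8239 and 7097, and 11066, 12914 and 7102. The library numbered 3 was the lowest of 3 in both cell types for 7 of the 8 subunits and for 29 of the 71 members, against 21.7% of all genes. The sum over the 8 subunits was 70211, 58926 and 51508 in CD4 DTx and 84830, 85279 and 52547 in CD8 DTx, with 58262 and 65254 in CD4 PBS and 57517 to 74531 in Treg PBS.

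Stress-inducible cytosolic chaperones varied widely between libraries of the same group. Hspa1a was 1283, 554 and 4787 in Treg cells, 764 and 1079 in CD4 PBS, 1428, 518 and 730 in CD4 DTx, 346 and 790 in CD8 PBS, and 543, 38.5 and 409 in CD8 DTx. Hspa1b was highest and lowest in the same libraries, 7080 in Treg PBS 3 and 37.6 in CD8 DTx 2. Single libraries set the means of Treg PBS and CD8 DTx, and Hspa1a differed 8.63-fold between Treg PBS 3 and Treg PBS 2. The log2 fold change of Hspa1a was 0.73 in Treg PBS against CD4 PBS (95% interval -1.56 to 3.01), -0.16 in CD4 DTx (-2.44 to 2.13) and -1.34 in CD8 DTx (-3.63 to 0.94), none called (limma adjusted p = 0.652, 0.946 and 0.432). The first turned to -0.11 without Treg PBS 3, and the second to 0.092 without CD4 PBS 3 and to 0.17 without CD4 DTx 2.

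Hspa8, the constitutive HSP70 of the cytosol, was 55482, 33343 and 46455 in Treg cells, 22152 and 56143 in CD4 PBS, 74334, 33440 and 35706 in CD4 DTx, 25658 and 57637 in CD8 PBS, and 69815, 61813 and 36047 in CD8 DTx. Every group overlapped every other. Dnajb1, the J protein that pairs with inducible HSP70, was 3233 and 7215 in CD4 PBS and 2917 and 7951 in CD8 PBS, and the other 9 libraries were between 2350 and 4417. Hsp90aa1 and Hsp90ab1, the inducible and constitutive HSP90 of the cytosol, had log2 fold changes of 0.32 and 0.30 in Treg PBS against CD4 PBS, -0.24 and -0.11 after DTx in CD4 cells, and 0.09 and -0.18 in CD8 cells. In the same order of comparisons Hspa8 gave 0.32, 0.34 and 0.48 (SE 0.50 each), the exchange factor Hsph1 (HSP110) 0.42, 0.41 and 0.42 (SE 0.43), Dnajb1 -0.77, -0.38 and -0.72 (SE 0.42), and the J protein Dnaja1 0.04, 0.06 and 0.0075 (SE 0.44). The limma adjusted p of Hspa8, Hsph1, Dnajb1 and Dnaja1 was at least 0.209, and no interval of the 6 genes excluded 0.

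Among PBS-treated mice, the libraries numbered 3 were set beside those numbered 2. The median fold over members was 1.06 in Treg, 1.15 in CD4 and 1.05 in CD8 PBS. With 2 libraries in CD4 PBS and in CD8 PBS, a high library numbered 3 cannot be told from a low library numbered 2. Treg PBS 1 lay above Treg PBS 3 for Hspa8 (55482 against 46455) and Dnaja1 (9402 against 8478). For Dnajb4 (278 against 602) and Dnajb9 (219 against 768) it lay below. In the libraries numbered 3, Dnajb9, Dnajb4, Hspa2 and Dnajc6 were over 2-fold higher than in those numbered 2 in Treg, CD4 and CD8 PBS alike. No member was over 2-fold lower in all 3, and the shares of all genes were 0.892% higher and 0.908% lower. At any size, 22 members were higher in all 3 and 6 were lower, against 17.7% and 16.2% of all genes. Dnajb9, an ER J protein that restrains the sensor IRE1, was 3.11-fold higher in Treg, 5.62-fold in CD4 and 4.43-fold in CD8 PBS, reaching 1979 in CD4 PBS 3. Dnajb4, a J protein with the GAA block printed above, was 261, 265 and 322 in the libraries numbered 2 and 602, 1144 and 940 in those numbered 3. Dnajc6 was near the floor of 3 reads in several of these libraries.

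Hspa5 was 1.42-, 2.86- and 2.02-fold higher in the same 3 pairs, Hspa8 1.39-, 2.53- and 2.25-fold, Hsph1 1.78-, 2.15- and 1.80-fold, and Dnajb1 1.70-, 2.23- and 2.73-fold. In CD4 and CD8 DTx the same ratios were 0.79 and 0.54 for Hspa5, 1.07 and 0.58 for Hspa8 and 1.04 and 0.82 for Dnajb1. Immediate early genes, which T cells induce within minutes of stimulation or of handling, were also higher in the 3 PBS pairs. The sum over 13 of them was 189159, 268754 and 236828 in the Treg, CD4 and CD8 PBS libraries numbered 3, against 40983, 67895 and 40994 in those numbered 2, and between 19937 and 49544 in all 6 DTx libraries. Treg PBS 1 had the lowest immediate early sum of the Treg libraries, at 30198, but the highest Hspa8, at 55482. CD4 DTx 1 had the lowest sum of its group (30822) and the highest Hspa8 (74334). Dnajb1 was highest in Treg PBS 3 (4004) and in CD4 DTx 1 (4417). Summed erythroid markers were 3216, 6567 and 6570 in Treg, CD4 and CD8 PBS 3. They were 1844, 948 and 1596 in those numbered 2, and 2218 in Treg PBS 1. The part of these in the chaperone levels was not tested.

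**Figure D4:**
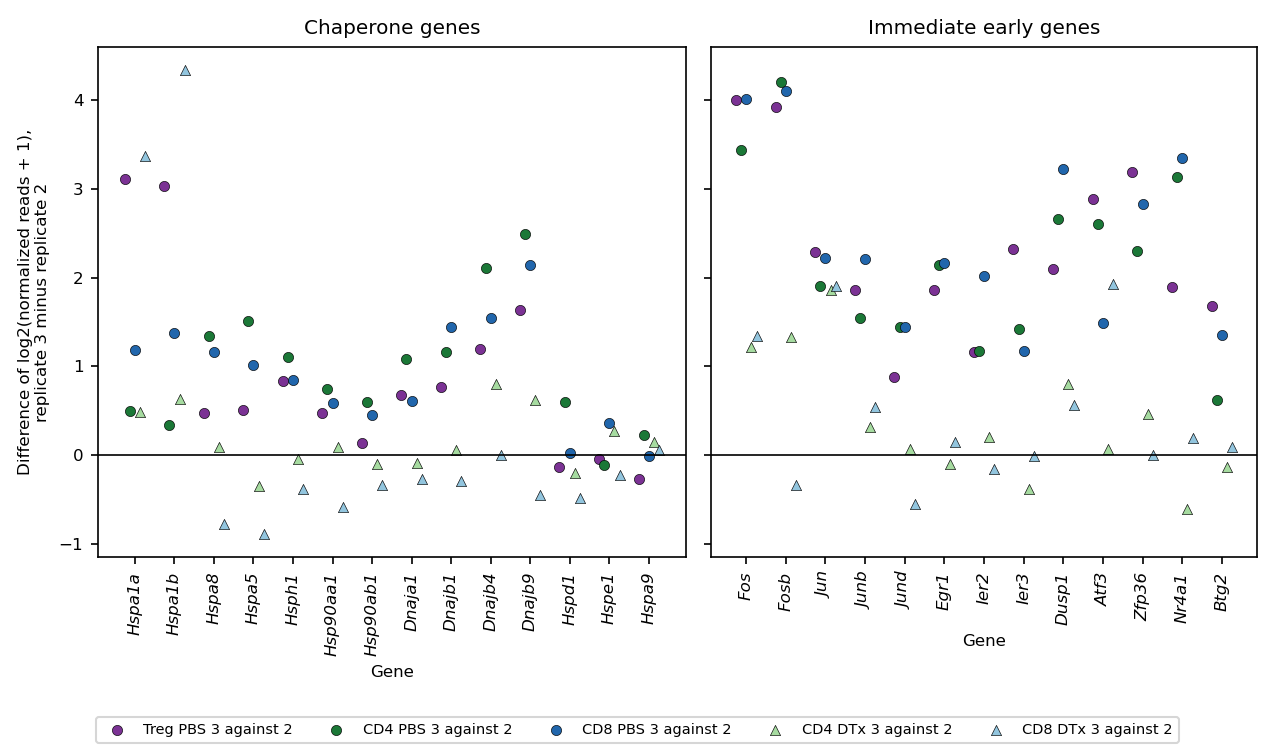
Difference in log2(normalized reads + 1) between the library numbered 3 and the library numbered 2 (vertical axis) for chaperone genes (left) and immediate early genes (right), with circles for PBS and triangles for DTx groups. The circles lie above 0 for all 11 genes from Hspa1a to Dnajb9 and for all immediate early genes, while the triangles of Hspa5 lie below 0 and those of Hspa1a and Hspa1b in CD8 DTx, where replicate 2 was at 38.5 and 37.6, lie above 3.

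Leaving out these 3 PBS libraries together, an alternative chosen after seeing the data, left 1 library each of CD4 PBS and CD8 PBS, assumed to vary like the other groups. Of all 33 calls of members in the 8 comparisons, 4 were then kept: Hspa4l in Treg PBS against CD4 PBS and in CD4 DTx against Treg PBS, Dnajc12 in CD4 DTx against Treg PBS, and Dnajc15 in CD8 DTx against Treg PBS. All 33 kept their direction. The share of all genes called fell as well, from 20.4% to 6.6% in Treg PBS against CD4 PBS and from 10.9% to 0.845% in CD8 DTx against CD8 PBS.

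Regulators and cochaperones outside the symbol rule gave the context of the pathway. Of 54 listed genes 50 were in the table. Treg cells had 6 of them called above and 3 below CD4 PBS, and 5 were called higher and 1 lower in CD4 DTx against CD4 PBS, and 5 higher and none lower in CD8 DTx against CD8 PBS. These are 9, 6 and 5 of 50 genes, to be read against the same 20.4%, 12.7% and 10.9% of all genes. The ER stress factors Atf6 and Xbp1 and the BiP cochaperone Sdf2l1 were called higher in all 3 comparisons. Other listed genes moved in mixed directions after DTx without being called. Their log2 fold changes in CD4 and CD8 cells were -0.31 and -0.68 for Atf4, and -0.18 and -0.07 for Herpud1. For Hyou1 they were 0.32 and -0.38, for Creld2 0.99 and 0.86, and for Manf 0.94 and 0.89. Xbp1 stood at 5117, 5328 and 5832 in Treg cells, and at 2631 and 2756 after PBS and 6120, 6657 and 5470 after DTx in CD4 cells. In CD8 cells it was 2098 and 2337 after PBS and 6551, 7378 and 4326 after DTx. All 9 Treg and DTx libraries stood above all 4 PBS libraries of Tconv cells. The log2 fold changes were 1.01, 1.17 and 1.42 (limma adjusted p = 0.00644, 0.00368 and 0.002). For Atf6 they were 1.79, 2.54 and 2.45 (limma adjusted p = 0.00339, 0.000598 and 0.00152), and for Sdf2l1 1.75, 1.62 and 1.42 (limma adjusted p = 0.00345, 0.00786 and 0.0198).

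Among the 3 members whose windows carry the ER stress element, Hsp90b1 stood higher in the same 3 comparisons (1.09, 0.71 and 0.90, the middle one not called). Hspa5 gave 0.04, -0.36 and 0.12, with none called. Dnajc3 was lower in Treg cells (-0.69) and was not called after DTx in either cell type. Hsf1, the factor that drives the cytosolic heat shock genes, was 1145, 1238 and 1666 in Treg PBS against 2211 and 2761 in CD4 PBS (log2 fold change -0.89, SE 0.23, limma adjusted p = 0.0156). After DTx it was lower in CD4 cells, at 1467, 1318 and 1462 (limma adjusted p = 0.0359). In CD8 cells it was 1443, 1347 and 1483 against 1849 and 2735, without overlap and not called (limma adjusted p = 0.084). The cochaperone Bag1, a nucleotide exchange factor of HSP70, rose in CD4 and in CD8 cells after DTx (0.78 and 0.92, limma adjusted p = 0.0274 and 0.0144).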

How the data were processed

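Libraries of sorted cells (SmartSeq2 per the labels, a SMARTer Ultra Low-input kit per the methods) were sequenced on a HiSeq. Per the labels and the paper's methods, cutadapt removed adaptors, hisat2 aligned the reads to NCBIM37 (mm9), and uniquely mapped reads were counted per gene and normalized to library size and intergenic reads. Strand setting, counter and gene filter are not given in the sources used here. The authors deposited 1 table of normalized signal per gene and library, in which 100% of values were whole multiples of 1 read (tolerance 0.01). FPM had been assumed in the plan of the tests, whose pseudocount (1) and minimum (10 in 2 libraries) stayed in use. Sums of the columns were between 2.18e+07 and 2.75e+07. All columns matched a sample title, and 0 columns belonged to no sample.

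limma 3.58.1 (trend, 1 mean per group, all 13 libraries, R 4.3.3, Benjamini-Hochberg adjustment) was the main test, and edgeR 4.0.16 and DESeq2 1.42.0 on the recovered reads were alternatives. edgeR called 16.9% of all genes in Treg PBS against CD4 PBS, 11.0% in CD4 DTx and 9.06% in CD8 DTx against PBS. The steps were tested on simulated data. The study used DESeq2. Members and lists were chosen with earlier results of these data known. Full statistics went to the 10 called members with the largest change per comparison and to the stress-inducible, constitutive, ER, mitochondrial and TRiC/CCT core members whatever their values, and other members were named by role. Promoter sequences and windows came from RefSeq (GRCm38.p6) and exons from GENCODE vM21, whose build differs from that of the counts, so they gave names, sequence and overlap only. Alternatives were the pseudocount, the filter, scaling, the test, the samples fitted, the replicate block, the 4-fold threshold and leaving out libraries. Replicate numbers came from the titles, and deviations of same-numbered libraries correlated at over 0.1 in every pair for CD8 DTx with CD4 DTx alone among groups with 3 pairs (0.36, 0.21 and 0.59). No fibroblast marker was in the table, and summed B cell and myeloid markers were at most 262 and 3942 normalized reads.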

Additional observations from a re-analysis of the deposited data

How the results depend on the processing

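None of the 33 calls of members changed sign in any alternative fit, 4 held in all of these fits and 29 were lost in at least 1. The 4-fold threshold is not counted among these fits. Of the 4 calls, that of Hspa4l in CD4 DTx against Treg PBS did not pass it. With 1 library left out in turn, the members called ran from 2 to 9 in Treg PBS against CD4 PBS, from 0 to 4 in CD4 DTx and from 0 to 9 in CD8 DTx against PBS, from 4 to 6 in CD4 DTx and from 3 to 4 in CD8 DTx against Treg PBS, from 0 to 0 in CD8 PBS against CD4 PBS and from 0 to 1 in CD8 DTx against CD4 DTx. In the same order, the share of all genes called in these fits ran from 9.39% to 20.9%, 5.19% to 11.3%, 1.59% to 19.7%, 4.48% to 7.06%, 5.59% to 7.6%, 0.45% to 0.916% and 0.482% to 1.78%. Leaving out the 3 PBS libraries numbered 3 left 1, 0, 0, 2, 1, 0 and 0 members called (6.6%, 4.52%, 0.845%, 3.73%, 4.16%, 0.426% and 0.655% of all genes), and the 4-fold threshold left 4, 0, 0, 3, 1, 1 and 0. DESeq2 called 11 members in CD4 DTx against CD4 PBS (18.3% of all genes), 9 in CD8 DTx against CD8 PBS (16.3%) and 2 in CD8 DTx against CD4 DTx (4.11%). edgeR called 2 in CD8 DTx against CD8 PBS (9.06%) and 0 in CD8 DTx against CD4 DTx (1.03%). Fitting the compared groups alone called 0 in CD8 DTx against CD8 PBS (1.89%), in CD8 PBS against CD4 PBS (0.292%) and in CD8 DTx against CD4 DTx (0.553%), and 5 in CD4 DTx against Treg PBS (5.05%). The difference of the DTx effects had 0 members called throughout. The causes of these changes were not tested.

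With the replicate number as a block, 7 members were called in CD4 DTx against CD4 PBS (16.0% of all genes, from 12.7% without it), 7 in CD8 DTx against Treg PBS (12.5%, from 8.6%) and 2 in CD8 DTx against CD4 DTx (3.27%, from 1.64%), the block cost none of the 33 calls, and the log2 fold change of Hspa1b in Treg PBS against CD4 PBS became -0.30. In the other comparisons same-numbered deviations correlated between -0.31 and 0.30, and neither the labels nor the methods say that a number marks a day. The Treg, CD4 and CD8 PBS libraries numbered 3 did share higher immediate early genes. Their median fold against the libraries numbered 2 was 4.29, 4.41 and 4.62. Whether the numbers pair the libraries in these comparisons is not known, and the main fits did not model a pairing.

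Uncalled members changed sign as follows. Without 1 library the log2 fold change in Treg PBS against CD4 PBS ran from -0.11 to 1.45 for Hspa1a, -0.89 to 0.63 for Hspa1b, -0.35 to 0.99 for Hspa8 and -0.71 to 0.80 for Hspa5. In CD4 DTx against CD4 PBS it ran from -0.56 to 0.17 for Hspa1a, -0.33 to 1.01 for Hspa8, -0.96 to 0.20 for Dnajb1 and -1.12 to 0.40 for Hspa5, and in CD8 DTx against CD8 PBS from -0.10 to 1.07 for Hspa8, -1.44 to 0.0047 for Dnajb1 and -0.39 to 0.63 for Hspa5. Without the 3 PBS libraries numbered 3, Hspa1b was at -0.72 in Treg PBS against CD4 PBS, Hspa1a at 0.092, Dnajb1 at 0.20 and Hspa5 at 0.40 in CD4 DTx, and Dnajb1 at 0.0047 in CD8 DTx. In Treg PBS against CD4 PBS, TMM scaling gave -0.0029 for Hspa1b, and edgeR and DESeq2 gave -0.14 and -0.13 for Hspa5. With 2 libraries in CD4 PBS and in CD8 PBS, precision is limited there, and a count of 3 reads corresponded to 1.98 to 4.10 normalized reads.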
